A study of Oryza sativa Japonica Group with 12 samples.

Results

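The genotype by mannitol interaction asks which mannitol responses of rice seedlings differ when B2 and B3 RAF protein kinases are impaired. It was computed per locus as the mannitol response in raf-b2/3 minus the mannitol response in the wild type (WT), on the log2(FPKM + 1) scale. FPKM divides a locus's fragments by its length and by the size of the library, so levels are per length. All 12 of 12 libraries and all 4 groups entered it, and 22371 of the 29358 loci were tested, the ones that reached 1 FPKM in 3 or more libraries. No measured response chose the loci, apart from this minimum level.

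The groups were WT without mannitol, WT after 6 hours in 800 mM mannitol, raf-b2/3 without mannitol and raf-b2/3 after the same treatment, with 3 libraries each. All seedlings were 5 days old, were sampled whole and grew under the same light and temperature cycle. Mannitol is a sugar alcohol that draws water out of plant cells and so imposes osmotic stress. The protocols write the wild type as WT/NIP. The genotype label calls raf-b2/3 a B2/3 RAF knockdown while the protocols call it a mutant, and neither names the loci targeted, so a level of the targeted genes could not be used to check the labels. One line stands for the genotype. No label tells whether a group's libraries were separate cultures, so every p-value here rests on the spread among libraries, and that spread may be technical.

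B-type Raf-like kinases act early in osmotic stress and abscisic acid (ABA) signalling. In Arabidopsis, B2 and B3 members phosphorylate and activate SnRK2 kinases, which clade A protein phosphatases (PP2C) switch off. ABA bound to its receptors blocks those phosphatases, and active SnRK2 kinases phosphorylate bZIP factors that turn on genes for dehydrins and other late embryogenesis abundant (LEA) proteins, for ABA breakdown and for the phosphatases themselves.

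An interaction below 0 means a response that was less positive or more negative in raf-b2/3, and one above 0 the opposite. By limma-trend with Benjamini-Hochberg adjustment, 666 of 22371 loci (2.98%) passed an adjusted p under 0.05, of which 438 (1.96%) were below 0 and 228 (1.02%) above it. At an unadjusted p under 0.05, 2084 loci were below 0 and 1563 above. The called loci below 0 had a median interaction of -0.86 and those above a median of 0.81, against -0.03 over all loci tested. Sizes of at least 1 were reached by 166 called loci below and 75 above (together 1.08% of all tested), and sizes of at least 2 by 48 and 3. Without WT mannitol replicate 1 only 263 loci passed, without WT mannitol replicate 2 only 312, without raf-b2/3 mannitol replicate 2 only 370, without raf-b2/3 control replicate 3 only 398 and without raf-b2/3 control replicate 1 only 440. In each of these the loci below 0 were the more numerous. A locus high in 1 group could meet the minimum level through that group alone, so that its being tested depended on that group. This held for 73 of the called loci below 0 (16.7%), 66 of them highest in WT mannitol, for 24 above 0 (10.5%), 22 of them highest in raf-b2/3 mannitol, and for 4.47% of all loci tested.

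The side below 0 consisted mostly of genes that mannitol raised in WT and raised less in raf-b2/3. Of the 438 loci, 271 rose in both genotypes, 107 rose in WT and did not pass in raf-b2/3, and 21 rose in WT and fell in raf-b2/3. Another 27 fell in raf-b2/3 without passing in WT, and 12 fell in both. The median response of the 438 was 1.36 in WT and 0.48 in raf-b2/3 on the log2 scale. Over all loci tested, 37.7% rose and 25.5% fell in WT, and 35.6% rose and 26.7% fell in raf-b2/3. These responses share libraries with the interaction that selected the loci and are given as a description.

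The side above 0 was mixed in direction. Of the 228 loci, 65 rose in both genotypes, 63 rose in raf-b2/3 and did not pass in WT, and 19 fell in WT and rose in raf-b2/3. A further 44 fell in both and 37 fell in WT without passing in raf-b2/3. Their median response was -0.15 in WT and 0.67 in raf-b2/3. Thus 147 of them rose in raf-b2/3, and 100 of them fell in WT.

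**Figure D1:**
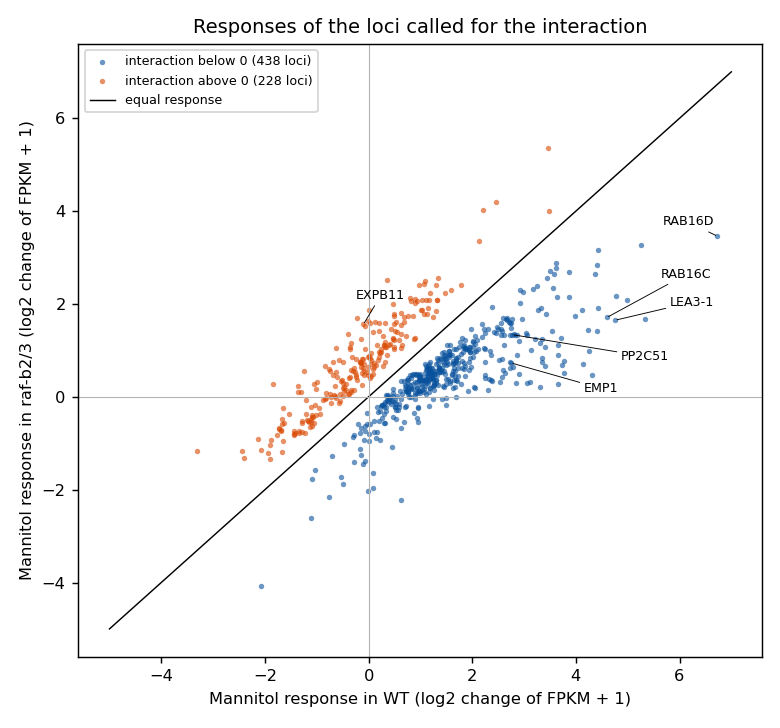
Mannitol response in raf-b2/3 (vertical axis) against that in WT (horizontal axis), both as log2 change of FPKM + 1, for the 666 called loci, with the line of equal response. The 438 loci with an interaction below 0 lie below the line and mostly right of 0, while the 228 above it spread over both directions of the WT response.

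The genotypes stood apart mostly under mannitol rather than before it, as they did over all loci, of which 15.8% passed under mannitol and 1.81% without. Of the 438 loci below 0, 403 did not pass a genotype difference without mannitol, while under mannitol 398 were lower in raf-b2/3. The 3 raf-b2/3 libraries and the 3 WT libraries did not overlap under mannitol at 424 of the 438 (96.8%), against 33.8% of all loci tested. Of the 228 above 0, 204 did not pass without mannitol, 201 were higher in raf-b2/3 under mannitol and 212 did not overlap there (93%). Without mannitol 167 of the 438 (38.1%) and 88 of the 228 (38.6%) did not overlap, against 21.3% of all loci. The interaction that selected these loci uses the same libraries, so these shares are a description. The reverse was rarer: 22 of the 438 were higher in raf-b2/3 without mannitol and did not pass under it, and 19 of the 228 were lower in raf-b2/3 without mannitol and did not pass under it.

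Each mannitol library was also set against the mean of the WT control libraries. Over the 438 loci the median difference was 1.39, 1.38 and 1.33 in the WT mannitol libraries and 0.51, 0.48 and 0.71 in those of raf-b2/3. Since these libraries selected the loci, the gap between the genotypes was fixed by that choice, and the medians only describe the libraries. Of raf-b2/3 mannitol, replicate 3 stood nearest to WT. Over the 228 loci the medians were 0.59, 0.61 and 0.54 in raf-b2/3 and -0.24, -0.23 and -0.04 in WT. Without raf-b2/3 mannitol replicate 3, 745 loci passed, 451 below 0 and 294 above.

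The share of loci called differed with the size and direction of the response. Loci were binned by the mean of both genotypes' responses, which favours neither genotype. Of 13954 loci with a mean response between -0.5 and 0.5, 0.638% were called below 0 and 0.638% above. Of 1356 loci with a mean response of 1 to 2, 9.96% were called below and 2.95% above, and of 280 loci at 2 to 3 the shares were 19.3% and 0.714%. Among the 63 loci with a mean response of 3 or more, 27% were called below 0 and 6.35% above, and the median response was 3.75 in WT and 3.18 in raf-b2/3. On the falling side the pattern differed, since of 1003 loci with a mean of -2 to -1 only 0.698% were below 0 and 2.59% above.

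**Figure D2:**
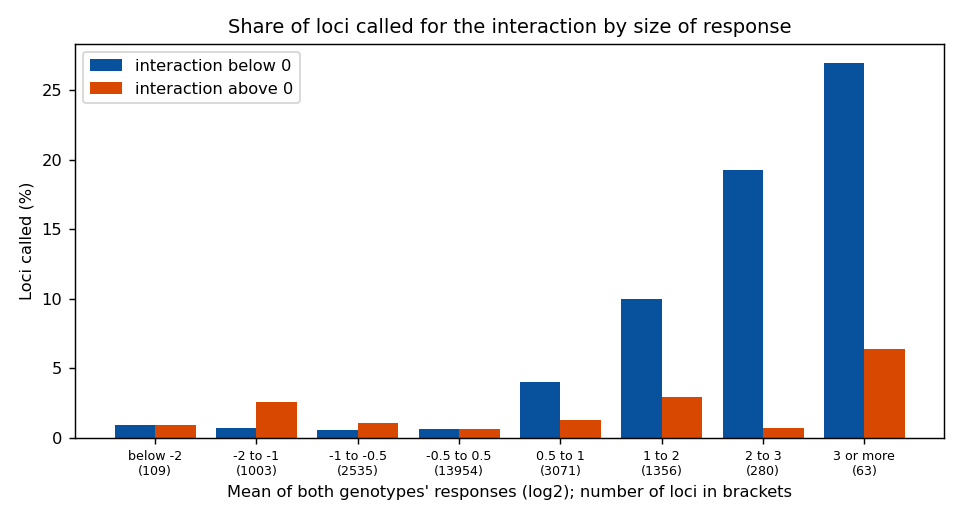
Share of loci called for the interaction (vertical axis, percent) by the mean of both genotypes' log2 responses (horizontal axis, number of loci in brackets), for interactions below 0 and above 0. The share called below 0 goes from 0.638% around no response to 27% among the 63 loci with a mean response of 3 or more, while the share above 0 stays at or under 6.35%.

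Named genes were examined in 23 lists by role. The shares to set beside each list are those of all loci tested, 1.96% called below 0 and 1.02% above. Of 212 tested list members, 24 were called, 17 below 0 and 7 above, which is 11.3% against 2.98% of all loci. The lists were written around known stress genes and with earlier results of these data in view, so this share is not independent evidence. Fragments of near-identical paralogs, such as the neighbouring genes RAB16A to RAB16D, could have been shared between copies, and fragments of overlapping or antisense genes may not have been told apart, since the strand setting of the counting is not given in the sources used here.

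LEA and dehydrin genes, whose products accumulate in drying tissue, had the lowest interactions of the lists. Of 8 tested members, 4 were called below 0 and 0 above, and all 8 values were below 0, with a median of -1.99. Over all loci the median was -0.03, 12317 of 22371 were below 0 and 1.96% were called below 0. The median response of the list was 4.26 in WT and 1.82 in raf-b2/3.

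RAB16D (LOC_Os11g26750), a dehydrin gene, had 0.715, 0.344 and 1.29 FPKM in WT control, 179, 229 and 151 in WT mannitol, 1.35, 1.35 and 2.22 in raf-b2/3 control and 22.6, 22.2 and 42.2 in raf-b2/3 mannitol. It rose in both genotypes, and every raf-b2/3 mannitol library lay below every WT mannitol library. The log2 response was 6.73 in WT and 3.46 in raf-b2/3, an interaction of -3.27 (SE 0.36, limma adjusted p 0.00087). LEA3-1 (LOC_Os05g46480), which encodes a LEA protein of dehydrating tissues, had 38.3, 27.1 and 7.04 FPKM in WT control and 20.5, 40.8 and 19.1 in raf-b2/3 control. Under mannitol it had 562, 669 and 466 in the WT libraries, against 60.6, 79.3 and 112 in raf-b2/3. The genotypes overlapped without mannitol and were far apart under it, where the mean in raf-b2/3 was 14.8% of that in WT. The ratio of mean FPKM with and without mannitol was 23.4 in WT and 3.13 in raf-b2/3, and the interaction was -3.11 (SE 0.68, limma adjusted p 0.03).

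RAB16C (LOC_Os11g26760), a dehydrin gene beside RAB16D, had 6.78, 6.44 and 1.87 FPKM in WT control and 130, 160 and 110 in WT mannitol. In raf-b2/3 it had 1.92, 1.2 and 1.53 in control and 3.72, 6.16 and 15.7 in mannitol. It rose in both genotypes, and the 3 raf-b2/3 mannitol libraries spread widely, all below WT mannitol (interaction -2.89, SE 0.61, limma adjusted p 0.025). EMP1 (LOC_Os05g28210), which encodes an Em-type LEA protein known from seeds, had 8.14, 9.65 and 5.36 FPKM in WT mannitol and 0.424, 0.474 and 1.8 in raf-b2/3 mannitol. No control library of either genotype was above 0.649 FPKM. Its interaction was -2.02 (SE 0.38, limma adjusted p 0.015), and it met the minimum level only through WT mannitol, with 1 library of the other groups at 1 FPKM or more.

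The other 4 members had interactions of -1.95 to -0.91 that did not pass. RAB16A (LOC_Os11g26790) had 35.4, 25.8 and 10 FPKM in WT control, 555, 614 and 446 in WT mannitol, 8.42, 5.5 and 7.22 in raf-b2/3 control and 34.4, 51.8 and 89.7 in raf-b2/3 mannitol (interaction -1.8, SE 0.56, limma adjusted p 0.12). It stood lower in raf-b2/3 in both conditions, with no overlap. RAB16B had an interaction of -1.95, LEA3-2 one of -1.33 and the dehydrin gene LIP9 one of -0.91, with adjusted p of 0.13, 0.087 and 0.2. By limma-voom on recovered fragments only LEA3-1 of this list was called (adjusted p 0.032), and the values of RAB16D, RAB16C and EMP1 were -3.94, -2.7 and -1.91 with adjusted p of 0.056, 0.16 and 0.57. Of 21 alternative settings, the call of LEA3-1 ended in 7, that of RAB16C in 8 and that of EMP1 in 3. Without WT mannitol replicate 1 only RAB16D was called, and without raf-b2/3 mannitol replicate 2, raf-b2/3 control replicate 1 or WT mannitol replicate 2 only EMP1 and RAB16D were.

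Clade A PP2C genes, the phosphatases that restrain SnRK2 kinases, had 3 of 9 members called below 0 and 0 above. Of all loci tested, 1.96% were called below 0. The median of the 9 was -0.68, against -0.03 over all loci. It was -0.38 without WT control replicate 3 and -0.45 without raf-b2/3 control replicate 2. The silicon, iron and nitrate transport list had a similar median, -0.65, with 0 called. The median response of the PP2C genes was 2.77 in WT and 1.94 in raf-b2/3. PP2C08 (LOC_Os01g46760) had 3.01, 2.14 and 2.7 FPKM in WT control and 11.7, 13.8 and 12.8 in WT mannitol, and 1.45, 1.32 and 1.34 followed by 2.98, 4.39 and 4.75 in raf-b2/3. It stood lower in raf-b2/3 in both conditions without overlap, and its interaction was -0.87 (SE 0.19, limma adjusted p 0.033). PP2C06 (LOC_Os01g40094) had 105 FPKM in each WT mannitol library and 67.4, 65.8 and 72.5 in raf-b2/3 mannitol. Its control libraries overlapped, at 17.6 to 21.1 in WT and 15.5 to 18.3 in raf-b2/3, and its interaction was -0.45 (SE 0.11, limma adjusted p 0.047).

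PP2C51 (LOC_Os05g49730) had 0.524, 0.438 and 0.411 FPKM in WT control and 9.53, 9.04 and 8.22 in WT mannitol. In raf-b2/3 it had 0.0526, 0.269 and 0.224 in control and 1.64, 1.89 and 2.51 in mannitol. It was lower in raf-b2/3 in both conditions without overlap, though the difference without mannitol did not pass (log2 -0.31, limma adjusted p 0.26). Its interaction was -1.42 (SE 0.17, limma adjusted p 0.0013) on the scale with 1 added. Its control values lie below that added 1, and with 0.1 added the interaction was -1.04 (adjusted p 0.26) and by limma-voom -0.62 (adjusted p 0.68).

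The 6 phosphatase genes not called had interactions of -0.73 to 0.01. The one nearest 0 was PP2C09 (LOC_Os01g62760), at 9.16, 8.34 and 8.91 FPKM in WT control, 96.1, 95.4 and 100 in WT mannitol, 6.18, 5.35 and 4.91 in raf-b2/3 control and 53.8, 60.7 and 80.6 in raf-b2/3 mannitol. It was lower in raf-b2/3 in both conditions with no overlap, and mannitol multiplied its mean by 11 in WT and 11.9 in raf-b2/3 (interaction 0.01, SE 0.17, limma adjusted p 0.99). The call of PP2C08 ended in 13 and that of PP2C06 in 16 of 21 alternative settings. By limma-voom 0 of the 9 were called. The counts without 1 library ran from PP2C51 alone, which was so for each of 8 libraries left out, to 5 members without raf-b2/3 mannitol replicate 3.

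Among the 10 tested SnRK2 genes, which rice names SAPK, 2 were called below 0 and 0 above, against 1.96% of all loci called below 0. The median interaction was -0.1 (-0.15 to -0.06 without 1 library), against -0.03 over all loci. SAPK1 (LOC_Os03g27280) had 12.3, 10 and 9.69 FPKM in WT control, 30.5, 30.4 and 30.2 in WT mannitol, 12.4, 14.2 and 13.5 in raf-b2/3 control and 25.1, 21.9 and 23.2 in raf-b2/3 mannitol. It rose in both genotypes, and every raf-b2/3 library lay above every WT library without mannitol and below every one under it (interaction -0.67, SE 0.12, limma adjusted p 0.013). The genotype difference without mannitol did not pass (log2 0.31, limma adjusted p 0.11). SAPK3 (LOC_Os10g41490) had 28.3, 19.4 and 30.7 FPKM in WT control and 26.5, 28.6 and 28.4 in raf-b2/3 control, and 73.7, 64.8 and 66.6 against 42.4, 40 and 40.7 under mannitol. The genotypes overlapped without mannitol only, and the interaction was -0.83 (SE 0.18, limma adjusted p 0.029). SAPK1 kept its call in all 21 alternative settings, while that of SAPK3 ended in 7 of them, each without 1 library, with adjusted p up to 0.091.

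The other SnRK2 genes had interactions of -0.52 to 0.24. SAPK6 (LOC_Os02g34600) had a ratio of mannitol to control means of 3.92 in WT and 3.56 in raf-b2/3, with an interaction of -0.14 (SE 0.12, limma adjusted p 0.63). SAPK8, SAPK9 and SAPK10 are kinases that ABA activates in rice, and their interactions were -0.07, 0.01 and -0.52 (adjusted p 0.75, 0.99 and 0.17).

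In ABA metabolism 1 of 5 members was called. ABA8OX2 (LOC_Os08g36860) encodes an ABA 8′-hydroxylase, which inactivates ABA. It had 4.46, 3.71 and 3.44 FPKM in WT control, 17.4, 18.3 and 17.6 in WT mannitol, 2.95, 2.62 and 2.18 in raf-b2/3 control and 6.42, 4.68 and 7.19 in raf-b2/3 mannitol. It rose in both genotypes and stayed lower in raf-b2/3 with no overlap, though the difference without mannitol did not pass (log2 -0.44, limma adjusted p 0.13). Mannitol multiplied its mean by 4.6 in WT and 2.36 in raf-b2/3 (interaction -0.98, SE 0.19, limma adjusted p 0.017). NCED3 (LOC_Os03g44380), for an enzyme of ABA synthesis, had 2.92, 3.32 and 3.28 FPKM in WT mannitol and 2.34, 2.85 and 3.65 in raf-b2/3 mannitol, with an interaction of 0.33 (SE 0.28, limma adjusted p 0.61). The call of ABA8OX2 ended without WT mannitol replicate 1 or 2 and by limma-voom, with adjusted p of 0.051 to 0.053.

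Stress transcription factor genes held 1 call among 16, HOX6 (LOC_Os09g35910), of the HD-Zip class. It had 8.99, 9.7 and 10.4 FPKM in WT control, 26.4, 27.2 and 25.1 in WT mannitol, 9.09, 7.34 and 8.5 in raf-b2/3 control and 12.3, 11.8 and 15.8 in raf-b2/3 mannitol. Control libraries overlapped and mannitol libraries did not, and the interaction was -0.74 (SE 0.15, limma adjusted p 0.022). Its relatives HOX22 and HOX24 had interactions of -1.25 and -1.62 that did not pass (SE 0.36 and 0.52, adjusted p 0.087 and 0.13). BZIP23 and TRAB1, bZIP factors of ABA signalling, had -0.53 and -0.35 (adjusted p 0.096 and 0.12), and NAC6 and DREB2A had -0.13 and -0.11.

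The calls of this list depended on single libraries. HOX24 (LOC_Os02g43330) had 4.25, 4.38 and 11.2 FPKM in the raf-b2/3 mannitol libraries and 31.8, 29.2 and 29.2 in those of WT, so that replicate 3 of raf-b2/3 stood nearest to WT. Without it, 5 members were called, BZIP23, HOX22, HOX24, HOX6 and TRAB1. For HOX24 leaving it out widened the gap, so that call is no separate support. The list had 0 calls without WT mannitol replicate 1 or 2, raf-b2/3 mannitol replicate 2, raf-b2/3 control replicate 1 or 3, or WT control replicate 1.

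**Figure D3:**
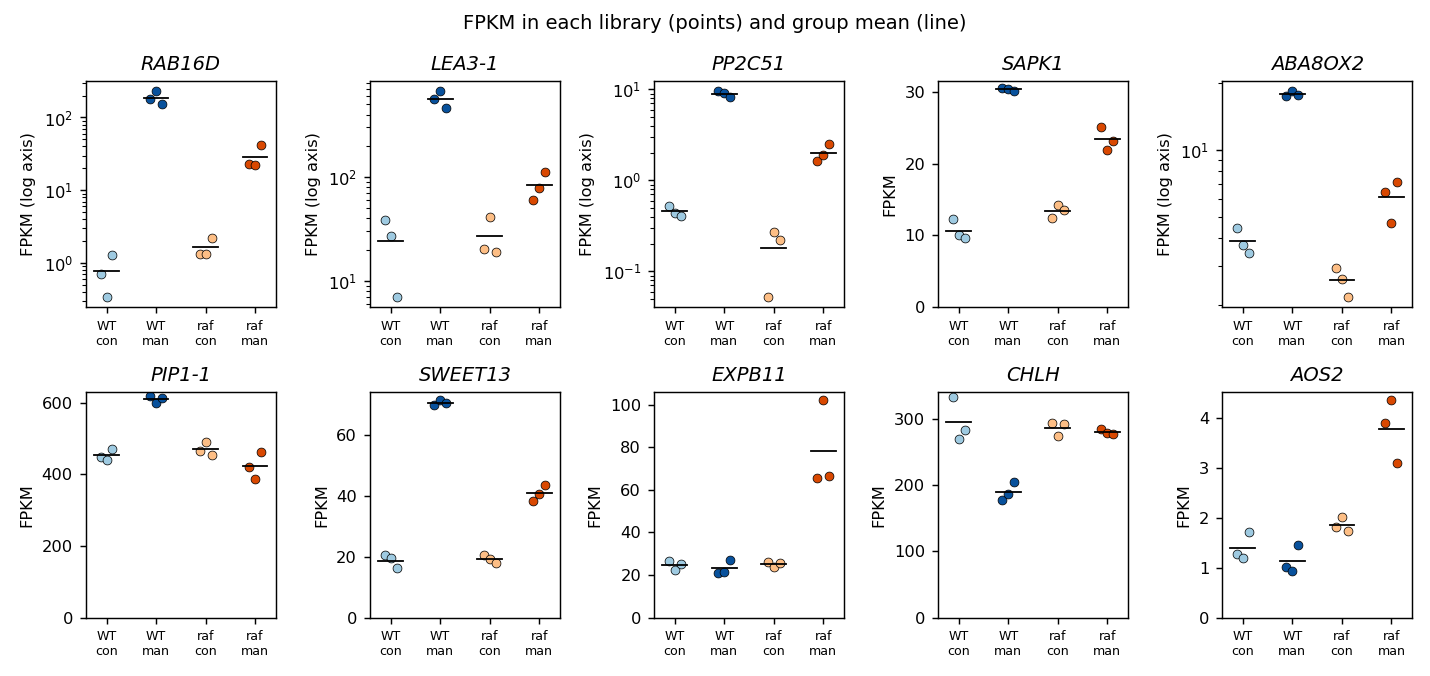
FPKM of 10 genes in each library (points) with the group mean (line), for WT and raf-b2/3 (raf) in control (con) and mannitol (man), on a log axis where the panel says so. In RAB16D, LEA3-1, PP2C51, SAPK1, ABA8OX2, PIP1-1 and SWEET13 the raf-b2/3 mannitol libraries lie below all WT mannitol libraries, and in EXPB11, CHLH and AOS2 they lie above them.

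Genes for compatible solutes, small molecules that hold water in the cell, gave 2 calls below 0 among 9 and 0 above. Their median was 0.03 and 5 of the 9 were above 0. Of all loci tested, 1.96% were called below 0. P5CS1 (LOC_Os05g38150) encodes a proline synthesis enzyme. It had 36.5, 34.3 and 36.3 FPKM in WT control, 61.8, 64.2 and 52.8 in WT mannitol, 37.4, 43.3 and 39.8 in raf-b2/3 control and 43.3, 46.3 and 41.5 in raf-b2/3 mannitol. It rose in WT and did not pass in raf-b2/3, with log2 responses of 0.72 and 0.12 (adjusted p 0.21 for the latter) and an interaction of -0.6 (SE 0.11, limma adjusted p 0.016), a call that ended without WT mannitol replicate 1 (adjusted p 0.059). P5CS2 (LOC_Os01g62900), the other proline synthesis gene, had 42.1, 48.7 and 43.7 FPKM in WT mannitol and 39, 44.9 and 36.5 in raf-b2/3 mannitol, with an interaction of 0.14 (SE 0.13, limma adjusted p 0.63). SUS3 (LOC_Os07g42490), a sucrose synthase gene, had 2.2, 3.88 and 2.52 FPKM in WT mannitol and 0.738, 0.775 and 0.54 in raf-b2/3 mannitol, against at most 0.718 in any control library. Its interaction was -1.12 (SE 0.22, limma adjusted p 0.021), and the call ended with 0.1 added (adjusted p 0.053) and by limma-voom (0.082). SUS3 met the minimum level only through the 3 WT mannitol libraries, so it was not tested without any 1 of these libraries. With a minimum of 5 FPKM it was not tested either, since its highest value was 3.88. It was tested in 17 of 21 alternative settings. The highest values of the list, 0.87 and 0.88, belonged to TPP1 (LOC_Os02g44230) and TPP2 (LOC_Os10g40550), which encode trehalose phosphate phosphatases and did not pass (SE 0.24 and 0.31, limma adjusted p 0.079 and 0.18). TPP1 had 5.25, 5.46 and 5.88 FPKM in WT mannitol and 14.3, 13.2 and 9.75 in raf-b2/3 mannitol. TPP2 had 4.1, 3.77 and 5.14 against 12.7, 9.45 and 5.78. In both the genotypes overlapped without mannitol and not under it. Both were called above 0 without raf-b2/3 mannitol replicate 3, which stood nearest to WT. Leaving it out widened the gap, so those calls are no separate support. SALT (LOC_Os01g24710), a lectin gene used as a marker of salt and drought, had 1420, 1570 and 1480 FPKM in WT mannitol and 1480, 1220 and 1120 in raf-b2/3 mannitol, and its interaction was -0.1 (SE 0.22, limma adjusted p 0.87).

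Aquaporin genes, whose products let water cross membranes, had 2 of 14 called below 0, 0 above, and 12 of 14 values below 0, with a median of -0.39. Over all loci tested, 1.96% were called below 0, 12317 of 22371 values were below 0 and the median was -0.03. PIP1-1 (LOC_Os02g44630) had 448, 441 and 472 FPKM in WT control, 619, 600 and 614 in WT mannitol, 466, 489 and 454 in raf-b2/3 control and 420, 388 and 463 in raf-b2/3 mannitol. It rose in WT and did not pass in raf-b2/3, where the log2 response was -0.15 (adjusted p 0.1), and the interaction was -0.58 (SE 0.11, limma adjusted p 0.015). PIP1-2 (LOC_Os04g47220) had 543, 506 and 547 FPKM in WT control and 494, 517 and 479 in raf-b2/3 control, and 949, 870 and 886 against 520, 553 and 601 under mannitol. Its control libraries overlapped and its mannitol libraries did not, with an interaction of -0.59 (SE 0.11, limma adjusted p 0.016). Without WT mannitol replicate 1 neither was called, with adjusted p of 0.055 and 0.06.

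Several aquaporins are known as root genes, and the 3 root markers measured here had lower means under mannitol in both genotypes. The genotype difference under mannitol did not have the same sign in all 3. The summed FPKM of the 3 root markers LSI1, LSI2 and YSL15 was 340 to 363 in WT control replicates 1 and 3, 75.4 in replicate 2, and 385 to 461 in raf-b2/3 control. Under mannitol it was 38.8 to 40.5 in WT and 18.1 to 23.7 in raf-b2/3, with no overlap and no marker at 0. Most of that sum was LSI1 (LOC_Os02g51110), a silicon channel gene of roots, which had 36.1, 35.6 and 33.7 FPKM in WT mannitol and 12, 15.9 and 19.7 in raf-b2/3 mannitol, with an interaction of -2.15 (SE 0.56, limma adjusted p 0.062). LSI1 was called without any 1 of the WT control replicates. LSI2 (LOC_Os03g01700), a silicon exporter gene, went the other way under mannitol, at 1.62, 1.89 and 2.79 FPKM in WT and 3.55, 2.95 and 2.88 in raf-b2/3 with no overlap. YSL15 (LOC_Os02g43410), an iron transporter gene, overlapped there, with means of 2.21 FPKM in WT and 2.2 in raf-b2/3. The interactions of LSI2 and YSL15 were -0.53 and -0.69 (limma adjusted p 0.75 and 0.8). In whole seedlings, fewer cells of a type and less RNA per cell cannot be told apart, and the part of root content in these results was not tested.

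Sugar transport and hormone genes added 1 call each, in lists written after the interaction had been seen. SWEET13 (LOC_Os12g29220), which encodes a sucrose exporter, had 20.4, 19.6 and 16.2 FPKM in WT control and 20.5, 19.3 and 17.9 in raf-b2/3 control. Under mannitol it had 69.8, 71.3 and 70.2 in the WT libraries, against 38.4, 40.6 and 43.4 in raf-b2/3. The genotypes overlapped before mannitol and not under it, and mannitol multiplied the mean by 3.76 and 2.12 (interaction -0.82, SE 0.12, limma adjusted p 0.0035). SWEET15 (LOC_Os02g30910), of the same family, had ratios of 27.2 in WT and 29.3 in raf-b2/3, with an interaction of -0.33 (SE 0.26, limma adjusted p 0.58). The ratios use mean FPKM without the added 1, unlike the interaction. Under mannitol the mean of SWEET15 in raf-b2/3 was 48.9% of that in WT, against 58% for SWEET13. IAA9 (LOC_Os02g56120), an Aux/IAA gene of auxin signalling, had 0.596, 0.862 and 0.741 FPKM in WT control, 5.4, 6.14 and 5.26 in WT mannitol, 1.45, 1.63 and 0.859 in raf-b2/3 control and 3.78, 3.89 and 3.19 in raf-b2/3 mannitol. It rose in both genotypes and less in raf-b2/3 (interaction -0.92, SE 0.19, limma adjusted p 0.023), and the call ended by limma-voom (adjusted p 0.068) and without WT mannitol replicate 1 or 2, WT control replicate 1 or raf-b2/3 control replicate 1 (adjusted p 0.051 to 0.068).

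On the side above 0, expansins gave 3 calls among 10 members and 0 below. The list was mixed in sign, with 6 values above 0 and 4 below and a median of 0.32 (0.19 to 0.52 in the alternative settings). Of all loci tested, 1.02% were called above 0, 10054 of 22371 values were above 0 and the median was -0.03. Expansins loosen cell walls during growth. EXPB11 (LOC_Os02g44108) had 26.5, 22.2 and 25.4 FPKM in WT control, 21.1, 21.4 and 26.9 in WT mannitol, 26.3, 23.9 and 25.5 in raf-b2/3 control and 65.7, 102 and 66.6 in raf-b2/3 mannitol. Only the raf-b2/3 mannitol libraries stood apart, and the other 3 groups overlapped one another. The log2 response was -0.1 in WT (adjusted p 0.6) and 1.56 in raf-b2/3, an interaction of 1.66 (SE 0.21, limma adjusted p 0.0017), and EXPB11 kept its call in all 21 alternative settings.

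EXPA4 and EXPB3 differed from EXPB11 in that mannitol lowered them in both genotypes. EXPA4 (LOC_Os05g39990) had 45.8, 49.9 and 45.2 FPKM in WT control, 19, 16 and 21.6 in WT mannitol, 50.7, 52.8 and 47.1 in raf-b2/3 control and 28.4, 40 and 36.3 in raf-b2/3 mannitol. EXPB3 (LOC_Os10g40720) had 82.4, 81.6 and 86.7 FPKM, then 27.5, 31.5 and 31.3, in WT, and 87.6, 88 and 92.5, then 43.7, 59 and 49.5, in raf-b2/3. Under mannitol both stayed higher in raf-b2/3 with no overlap. Their interactions were 0.75 (SE 0.17) and 0.63 (SE 0.13), with limma adjusted p of 0.038 and 0.025. Of the 7 not called, EXPA2 and EXPB6 had 0.52 and 0.73 (adjusted p 0.059 and 0.07) and EXPA3 had -1.27 (adjusted p 0.38). The call of EXPA4 ended in 13 and that of EXPB3 in 5 of 21 alternative settings, and EXPB11 alone was called without WT mannitol replicate 1 or 2, raf-b2/3 control replicate 1 or 2, or WT control replicate 3.

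CHLH (LOC_Os03g20700), which encodes a magnesium chelatase subunit needed for chlorophyll, was the 1 call among 4 photosynthesis genes. It had 333, 269 and 283 FPKM in WT control, 178, 187 and 205 in WT mannitol, 294, 274 and 292 in raf-b2/3 control and 285, 279 and 277 in raf-b2/3 mannitol. It fell by 0.63 on the log2 scale in WT and did not pass in raf-b2/3, where the response was -0.03 (adjusted p 0.75). The interaction was 0.59 (SE 0.12, limma adjusted p 0.02), and the call ended under quantile normalization (adjusted p 0.06) and without WT mannitol replicate 1 (0.07) or 2 (0.06). HSFA2D (LOC_Os03g06630), a heat shock factor gene, was the 1 call among 16 heat shock genes, with 10.4, 10.8 and 9.93 FPKM in WT control, 5.16, 6.9 and 6.13 in WT mannitol, 8.2, 12.9 and 8.53 in raf-b2/3 control and 17.5, 13.4 and 10.8 in raf-b2/3 mannitol. It fell in WT and rose in raf-b2/3, with log2 responses of -0.69 and 0.46 (adjusted p 0.0043 and 0.039) and an interaction of 1.15 (SE 0.25, limma adjusted p 0.029). That call ended in 9 of 21 alternative settings, each without 1 library and among them every WT library, with adjusted p up to 0.091. The raf-b2/3 rise of HSFA2D did not pass without raf-b2/3 mannitol replicate 1 or 2 or raf-b2/3 control replicate 1 or 3, where adjusted p ran from 0.069 to 0.17.

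Jasmonate genes had few calls, all above 0. Jasmonate is a defence and wound hormone, AOS2 encodes an allene oxide synthase of its synthesis, and JAZ proteins repress its signalling and are induced by it. AOS2 (LOC_Os03g12500) had 1.28, 1.2 and 1.72 FPKM in WT control, 1.02, 0.936 and 1.46 in WT mannitol, 1.82, 2.01 and 1.74 in raf-b2/3 control and 3.89, 4.35 and 3.1 in raf-b2/3 mannitol. The raf-b2/3 libraries were above those of WT in both conditions. Without mannitol the nearest values were 1.74 and 1.72, and the genotype difference did not pass (log2 0.26, limma adjusted p 0.4). Under mannitol the gap was wider, and the interaction was 0.9 (SE 0.19, limma adjusted p 0.025). The call of AOS2 ended in 7 of 20 alternative settings, with the replicate block (adjusted p 0.051) and without WT mannitol replicate 1 or 2, WT control replicate 3, raf-b2/3 mannitol replicate 2 or raf-b2/3 control replicate 1 or 3 (adjusted p up to 0.08). All 9 JAZ genes had interactions above 0, from 0.03 to 0.87 with a median of 0.39, against 10054 of 22371 loci above 0, and 1 was called. The median was 0.69 without raf-b2/3 control replicate 2 or WT control replicate 3, and with 5 added in place of 1 the list had 4 calls. The gene called, TIFY10B (LOC_Os07g42370), had 101, 94.5 and 95.1 FPKM in WT control, 91.2, 103 and 106 in WT mannitol, 100, 104 and 108 in raf-b2/3 control and 147, 142 and 135 in raf-b2/3 mannitol. Only its raf-b2/3 mannitol libraries stood apart (interaction 0.39, SE 0.1, limma adjusted p 0.048), and the call ended in 16 of 21 alternative settings.

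TIFY10C, WRKY62 and WRKY76 had larger values that did not pass. TIFY10C had an interaction of 0.87 (SE 0.22, limma adjusted p 0.058). WRKY62 (LOC_Os09g25070), a transcription factor gene of rice defence, had 6.28, 6.08 and 7.57 FPKM in WT mannitol and 30.6, 38.2 and 16.5 in raf-b2/3 mannitol, with an interaction of 1.41 (SE 0.41, limma adjusted p 0.09). Its neighbour WRKY76 (LOC_Os09g25060) had 1.77, 1.75 and 2.89 against 7.8, 9.99 and 5.28, with 1.46 (SE 0.37, adjusted p 0.057). In both, all raf-b2/3 mannitol libraries lay above all WT mannitol libraries. All 3 genes were called without raf-b2/3 mannitol replicate 3 and with 5 added. In WRKY62 and WRKY76 that replicate stood nearest to WT. Leaving it out widened the gap, so those calls are no separate support. TIFY10C was also called under both scalings and without raf-b2/3 control replicate 2, WRKY76 under quantile normalization and without raf-b2/3 control replicate 3, and WRKY62 without WT control replicate 2.

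Several lists held no call: 6 type-A response regulators of cytokinin signalling (median 0.29, all 6 above 0, adjusted p 0.088 to 0.48), 16 kinase and calcium signalling genes (median -0.02), 8 antioxidant genes (-0.03), 5 cell cycle genes (-0.05), 6 phenylpropanoid genes (0.12), 10 silicon, iron and nitrate transport genes (-0.65), 4 alpha-amylase genes (0.5) and 2 seed storage genes (0.06). Without 1 library the transport median ran from -1.29 (WT control replicate 3) to -0.11 (WT control replicate 2), and it was 0.16 without WT control replicate 2 and raf-b2/3 mannitol replicate 3 together. The alpha-amylase median ran from -0.88 (without raf-b2/3 control replicate 3) to 1.91 (without raf-b2/3 mannitol replicate 1). The kinase, antioxidant, cell cycle and phenylpropanoid medians also took either sign among the alternative settings. The response regulators had median responses of -2.74 in WT and -2.4 in raf-b2/3. Over all loci tested, 10054 of 22371 interactions were above 0. PCNA (LOC_Os02g56130), a replication gene, had 26.3, 23.1 and 21 FPKM in WT mannitol and 23.6, 19.9 and 20.3 in raf-b2/3 mannitol, with an interaction of -0.05 (SE 0.14, limma adjusted p 0.91). A p that misses the threshold does not show that the responses were equal.

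**Figure D4:**
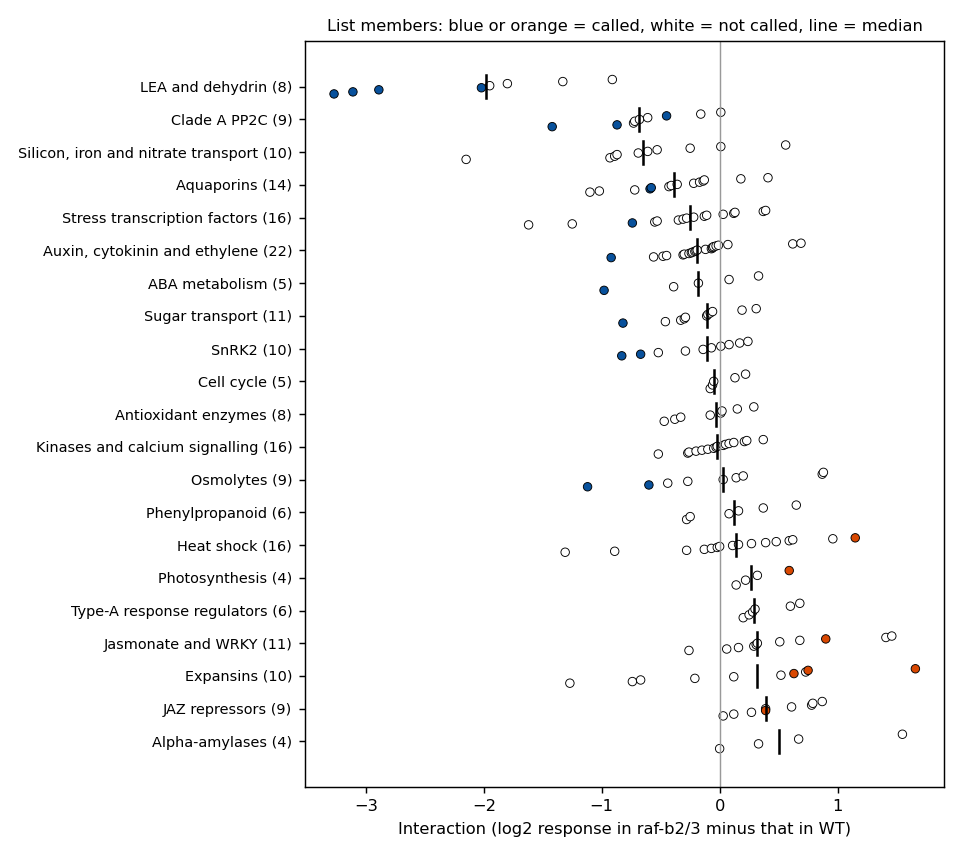
Interaction (horizontal axis, log2 response in raf-b2/3 minus that in WT) of each tested member of the lists with 4 or more members, with called members filled and the list median as a line. The LEA and dehydrin list has the lowest median, -1.99, while the calls above 0 fall among expansins, heat shock, photosynthesis, JAZ and jasmonate genes.

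The lowest and highest interactions among all called loci belonged to loci without a name in the sources used here. LOC_Os06g02040 had 0.0773, 0.596 and 0.0757 FPKM in WT control, 23.9, 28.6 and 18.5 in WT mannitol, 0.155, 0.223 and 0.191 in raf-b2/3 control and 0.157, 0.343 and 1.9 in raf-b2/3 mannitol. It rose in WT and did not pass in raf-b2/3 (log2 0.47, adjusted p 0.17), and its interaction of -3.83 (SE 0.41, limma adjusted p 0.00082) was the lowest of all loci tested. It met the minimum level only through WT mannitol, the group where it is high. LOC_Os05g31670 went from 0.486, 0.754 and 0.66 to 67.7, 75.4 and 54.1 FPKM in WT and from 0.568, 0.233 and 0.213 to 2.47, 2.23 and 5.81 in raf-b2/3 (interaction -3.67, SE 0.34, limma adjusted p 0.00036). Both calls ended by limma-voom, at -5.76 and -3.34 (adjusted p 0.067 and 0.085).

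LOC_Os01g41420 had at most 2 FPKM in any control library, 0.448, 0.931 and 0.402 in WT mannitol and 7.67, 9.61 and 7.23 in raf-b2/3 mannitol. Only the raf-b2/3 mannitol libraries stood apart, with an interaction of 2.15 (SE 0.43, limma adjusted p 0.02), and by limma-voom it was 2.84 (adjusted p 0.25). It met the minimum level only through raf-b2/3 mannitol, and its call ended in 4 of 21 alternative settings. LOC_Os12g27220 had 21.1, 15.5 and 18.8 FPKM in WT control and 1.93, 1.34 and 0.871 in raf-b2/3 control. Under mannitol it had 0.219, 1.67 and 1.3 in the WT libraries, against 0.08, 0.0194 and 0.0394 in raf-b2/3, so it was lower in raf-b2/3 in both conditions. Its interaction of 2.14 (SE 0.35, limma adjusted p 0.0081) belongs to the scale with 1 added, since most mannitol values lie near or below 1, and it was -0.21 (adjusted p 0.97) by limma-voom.

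Between 37302253 and 39439918 fragments per library lay behind these values, as recovered from the FPKM steps. Mannitol and genotype followed the first and second principal components, with 71.6% and 12.3% of the variance. The shoot markers CAB1R, CAB2R and RCA summed to 6280 to 7230 FPKM in WT mannitol and 7190 to 7830 in raf-b2/3 mannitol. The 4 alpha-amylase genes, markers of the germinating grain, summed to 0.869 to 950 FPKM over the raf-b2/3 control libraries and 32.5 to 838 over the raf-b2/3 mannitol libraries, with 1 of the 4 at 0 in a control library. The genotypes overlapped in these sums under mannitol. Of the shoot markers, CAB1R and CAB2R also overlapped there, while RCA did not. RCA had 1250, 1370 and 1700 FPKM in WT mannitol and 2300, 2250 and 1950 in raf-b2/3 mannitol (interaction 0.32, limma adjusted p 0.51). The part of shoot and grain content in the results was not tested.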

How the data were processed

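Whole-seedling RNA was sequenced in pairs after a directional library preparation, per the labels' protocols. FPKM values of 12 libraries, deposited by the authors in 1 table, were used. Per the submitters' processing notes, the build was IRGSP-1.0 and the tools included Trimmomatic, DESeq2 and edgeR. Aligner and annotation release: not given in the sources used here.

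The members and lists were chosen with earlier results of these data known. The lists for auxin, cytokinin and ethylene, sugar transport, phenylpropanoids and kinases, and some jasmonate and WRKY entries, were added after the interaction had been seen. Of 295 hand-written pairs of gene name and locus number, 223 agreed in chromosome and order with RefSeq symbols (assembly ASM3414082v1, which lacks these numbers), 221 of these were in the table and 74 were not used. Of each list every called member is named (at most 6), with examples of those not called. Without a name, the 2 lowest and 2 highest called loci are given. Genes named beyond this rule were chosen after their values were seen.

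The test was limma-trend (limma 3.58.1, R 4.3.3) on log2(FPKM + 1), 1 mean per group over 12 libraries, 8 residual degrees of freedom (12.1 in all with limma's prior), with Benjamini-Hochberg adjustment over 22371 loci and calls at 0.05. The added 1 shrinks responses of low genes unequally between genotypes. Whole fragments were recovered for 29357 of 29358 loci within 0.01 of a fragment (99.9% exact in 3000 simulated loci) and used with limma-voom. Tested on simulated data with 200 changed loci, an interaction of 1 was recovered for 86% and one of 0.5 for 40%, and 8% of calls were false. Alternatives were 2 other pseudocounts, 2 other filters, 2 scalings, a replicate block, limma-voom, each library left out, and 2 libraries left out together. Same-numbered libraries did not deviate together, so no pairing was used.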

Additional observations from a re-analysis of the deposited data

Results flagged for a closer look

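The mannitol response differed between genotypes, by the test of the difference itself, at 666 loci. Among the named genes with a response less positive or more negative in raf-b2/3, the interaction was -3.27 for RAB16D, -3.11 for LEA3-1, -2.89 for RAB16C and -2.02 for EMP1 among LEA genes. It was -1.42 for PP2C51, -0.87 for PP2C08, -0.45 for PP2C06, -0.83 for SAPK3, -0.67 for SAPK1, -0.98 for ABA8OX2 and -0.74 for HOX6 among signalling genes. It was -1.12 for SUS3, -0.6 for P5CS1, -0.59 for PIP1-2, -0.58 for PIP1-1, -0.92 for IAA9 and -0.82 for SWEET13. LOC_Os06g02040 and LOC_Os05g31670 had -3.83 and -3.67. EMP1, SUS3 and LOC_Os06g02040 met the minimum level only through WT mannitol, the group where they are high. By limma-voom their adjusted p were 0.57, 0.082 and 0.067.

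In the other direction it was 1.66 for EXPB11, 0.75 for EXPA4, 0.63 for EXPB3, 1.15 for HSFA2D, 0.9 for AOS2, 0.59 for CHLH and 0.39 for TIFY10B. It was 2.15 for LOC_Os01g41420 and 2.14 for LOC_Os12g27220. LOC_Os01g41420 met the minimum level only through raf-b2/3 mannitol, and by limma-voom its adjusted p was 0.25. The value of LOC_Os12g27220 belongs to the scale with 1 added, and by limma-voom it was -0.21 (adjusted p 0.97).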

How the results depend on the processing

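The number of loci called, in all or on 1 side of 0, moved by over 1.5 times in several settings. By limma-voom on recovered fragments 365 passed (236 below 0 and 129 above), and 659 of the 666 loci had the same sign. With 0.1 added in place of 1, 452 passed (303 and 149), and with 5 added 954 (606 and 348). With either pseudocount only the number above 0 moved that far. With a size of at least 1 as well, 241 passed (166 and 75). Leaving out 1 library gave 263 to 745 loci in all, 185 to 451 below 0 and 78 to 294 above, and 260 of the 666 passed in the smallest of these. Without WT control replicate 2 and raf-b2/3 mannitol replicate 3 together, 814 passed, 363 of them above 0, and again only the number above 0 moved that far. The cause was not tested. Median-of-ratios scaling (382 below, 266 above), quantile normalization (387 and 287) and both other filters stayed within 1.5 times. The share below 0 was 65.8% as reported, 59% and 57.4% under these 2 scalings, and 55.4% without the 2 libraries.

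With a replicate block 556 loci passed, 383 below 0 and 173 above. The numbers do not pair the libraries: correlations of same-numbered deviations were -0.31 to 0.26 for number 1, 0 to 0.12 for number 2 and -0.1 to 0.08 for number 3, and 4 of 12 libraries correlated best with their own number. SAPK1, EXPB11 and SWEET13 kept their calls in all 21 settings.

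LOC_Os12g27220 changed sign by limma-voom, to -0.21. Other changes of sign were genotype differences without mannitol that passed in no setting. By limma-voom LOC_Os06g02040 had 0.21, and without the 2 libraries SAPK3 had -0.08, EXPB11 -0.04 and LOC_Os06g02040 0.14. With 1 library left out these differences ran from -0.34 to 0.8 for LEA3-1, -0.08 to 0.24 for SAPK3, -0.17 to 0 for SUS3, -0.28 to 0.02 for HSFA2D, -0.1 to 0.05 for CHLH, -0.04 to 0.08 for EXPB11, -0.05 to 0.1 for SWEET13, -0.14 to 0.14 for LOC_Os06g02040 and -0.07 to 0.63 for LOC_Os01g41420. The planned edgeR test was not run because the deposited values are FPKM. Low loci are limited by the scale as well as by depth: below about 1 FPKM the added 1 sets much of the interaction.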

Other observations

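Called loci lay on all 12 chromosomes. The share called ran from 2.56% on chromosome 8 to 4% on chromosome 10, where 24 loci were below 0 and 23 above, against 2.98% of all loci. Chromosome 10 was also the chromosome on which the sides were nearest in number. This was not tested.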
